A study of Homo sapiens with 9 samples.

Results

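Adhesion G protein-coupled receptors were followed by nascent transcription in MEL624, an established human melanoma cell line, with and without PCIF1. Members were taken by name from the deposited table: protein-coding genes whose GENCODE symbol begins with ADGR, plus CELSR1, CELSR2 and CELSR3. They number 31 of the 58336 genes listed, 19773 of which are protein-coding. Precision run-on sequencing (PRO-seq), which labels the RNA of polymerases caught in the act of transcription, was done on 9 libraries in 3 groups of 3 biological replicates. The control was wild-type MEL624 with a random guide RNA, and each of the other groups was 1 PCIF1 KO clone, here clone 1 (KO1) and clone 2 (KO2). PCIF1 methylates an adenosine next to the mRNA cap. All 3 groups are derivatives of 1 line grown in the same medium, each with Drosophila cells spiked in. A clone differs from the control by its single-cell origin as well as by its genotype. No group is described as an unedited clone, so these cannot be told apart.

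Adhesion receptors join a long extracellular region, often built of cadherin, immunoglobulin, EGF or lectin-like repeats, to the membrane core of a G protein-coupled receptor. Most cut themselves at a site next to the membrane, in the GAIN domain, and the stub left behind can act as a tethered agonist when a ligand on a neighbouring cell or in the matrix pulls the outer part away. They are known for roles in synapse formation, myelination, planar cell polarity, vessel growth and leukocyte adhesion, and ADGRG1 has been studied as a restraint on melanoma growth and spread.

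The table gives 1 mean per group and no value for single libraries. So the values carry no SD, n or p, the depth of each library is unknown, and no difference could be set against replicate spread. Levels per kb are the deposited means of normalized counts per kb of gene length and serve to compare genes. Counts are those values times length in kb, and serve to judge how much signal lies behind a value. A log2 ratio is that of 2 group means of counts after 1 is added to each, which understates the ratio of low genes. A gene was compared if its count averaged 10 or more across the groups, and a log2 ratio of 1 or more, or of -1 or less, is called at least 2-fold.

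As to the state of the cells, counts over PCIF1 itself were 239.5, 269.6 and 239.3. Such triplets are given here and below in the order control, clone 1, clone 2. Nascent reads over an edited gene do not check a knockout. Of the melanocyte markers, MITF had 168.5, 142.0 and 259.2 counts and PMEL 48.4, 21.3 and 23.8, whereas TYR was listed at 0 throughout and SOX10, MLANA and DCT did not exceed 6.1 counts in any group, so 4 of the 6 melanocyte markers were at or near 0. Of the epithelial markers, the keratin genes KRT8 and KRT18 were at 370.5 to 842.1 counts, EPCAM had 12.6, 10.0 and 4.5, and CDH1 did not exceed 2.8. The leukocyte markers PTPRC, CD3E, CD14, LYZ and ITGAM and the endothelial markers PECAM1, CDH5, VWF and KDR lay at 7.2 counts or below.

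In control cells 29 of the 31 receptors had a value above 0 and 18 had at least 10 counts. The corresponding numbers were 27 and 19 in clone 1, and 26 and 20 in clone 2. ADGRD1, a receptor known from glioblastoma, was listed at 0 in all groups. The highest level per kb in each group belonged to ADGRE5, the leukocyte activation antigen CD97, with 70.67, 68.11 and 60.83 in control, clone 1 and clone 2. CELSR3, a cadherin receptor of axon guidance, came next with 32.98, 30.86 and 35.34. Among those that followed in control were ADGRA3 (27.19), ADGRL2 (23.36), ADGRG1 (20.62) and ADGRG6 (20.30). Whether neighbours in this order differ was not tested, and ADGRG1 and ADGRG6 lay close together in control. Per kb of listed length, the compared members were low beside other compared genes. The floor is set on counts, so genes of long listed length pass it at lower levels per kb. The listed length covers a median of 8.69% of the span of members, against 15.42% for protein-coding genes. The compared members had a median of 6.71 per kb in control, against 29.12 for all compared protein-coding genes, and 8.76 against 28.92 in clone 1 and 7.82 against 29.08 in clone 2. ADGRF1 moved from rank 22 of 31 in control to rank 8 in clone 1 and 12 in clone 2, and ADGRF4 from rank 13 to rank 24 in either clone.

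**Figure D1:**
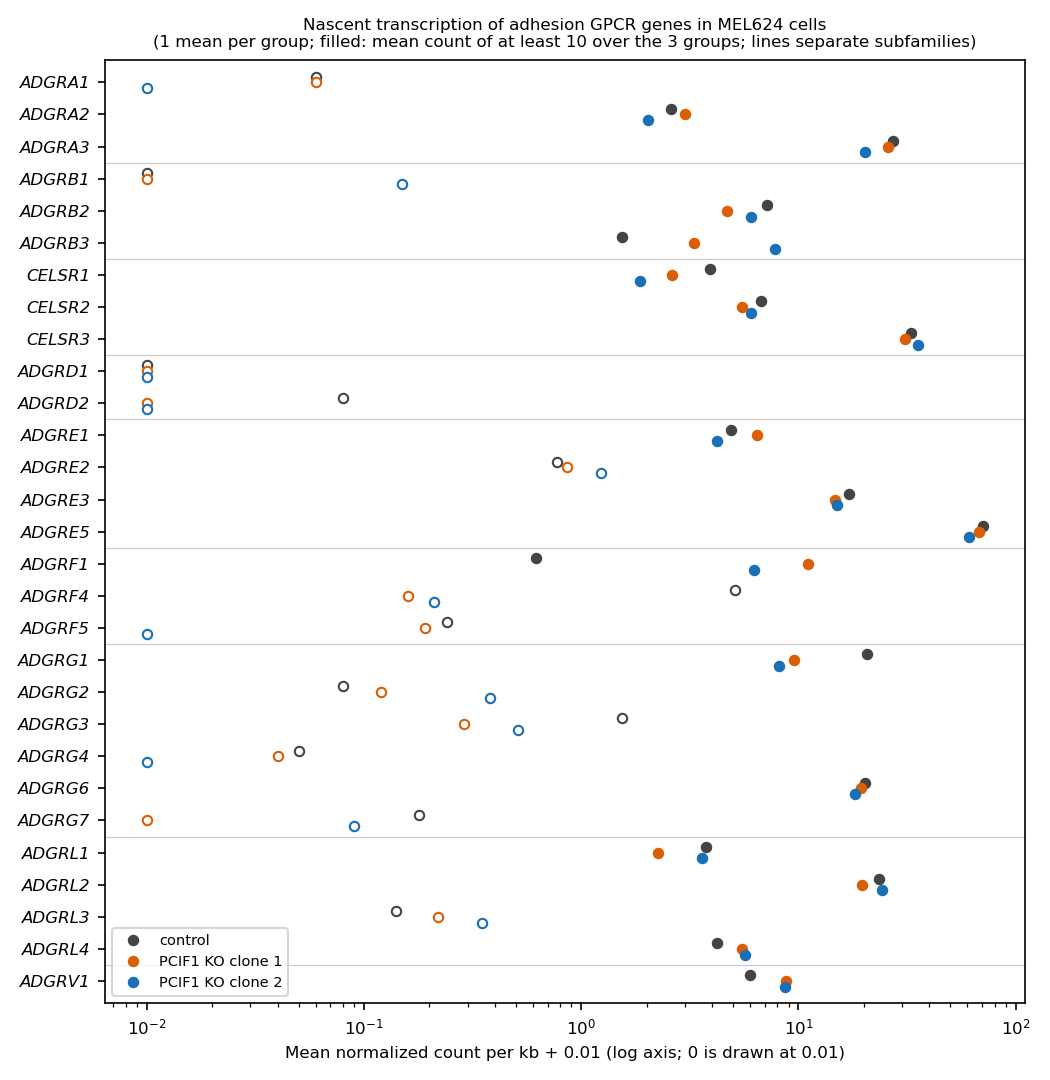
Levels of adhesion receptor genes, as mean normalized count per kb plus 0.01 on a log axis, with 1 point per group (control, PCIF1 KO clone 1, PCIF1 KO clone 2). Filled points mark genes that were compared. Most compared genes hold their place across the groups, with ADGRE5 farthest right, while the points of ADGRF1, ADGRB3 and ADGRG1 spread apart. So do the open points of ADGRF4. Other open points at low levels, such as those of ADGRG3 and ADGRF5, also spread widely on this axis.

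Of the 31 members, 19 (61.3%) reached the floor and were compared, against 63.3% of protein-coding genes. In clone 1, 2 of the 19 were at least 2-fold above control (ADGRF1 and ADGRB3), where 2.27% of all 17149 compared genes and 2.04% of protein-coding ones were. A single member, ADGRG1, was at least 2-fold below, against a background of 1.32%. In clone 2 the same criterion took ADGRF1 and ADGRB3 as higher, against a background of 3.34%, and ADGRG1 and CELSR1 as lower, against 1.9%. Between the clones it took ADGRB3 as higher in clone 2, against 1.05%, and no member as lower, where 0.933% of all genes were. With so few members each count rests on 1 or 2 genes, and ADGRF1 and ADGRB3 reached the floor through their levels in the clones, having 7.6 and 9.9 counts in control. The comparisons of the clones with control share the control mean.

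The median log2 ratio of the 19 was -0.08 in clone 1 and -0.15 in clone 2, with -0.01 and -0.00 for protein-coding genes, so the members were centred near control. Within 1.5-fold of control lay 14 of the 19 in clone 1 (73.7%) and 15 in clone 2 (78.9%), against 11273 (90%) and 10839 (86.5%) of 12525 protein-coding genes. Low genes pass 2-fold more often: of protein-coding genes with 10 to 50 counts, where 9 of the members lie, 7.13% were at least 2-fold higher in clone 1 and 4.92% lower, against 1.31% and 0.587% at 50 to 200 counts. The ratio of clone 2 to clone 1 gives the only available measure of spread. Its central 95% over protein-coding genes ran from -1.14 to 1.21 at 10 to 50 counts, from -0.45 to 0.60 at 50 to 200 and from -0.34 to 0.53 at 200 to 1000. It includes whatever true difference there is between the clones.

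**Figure D2:**
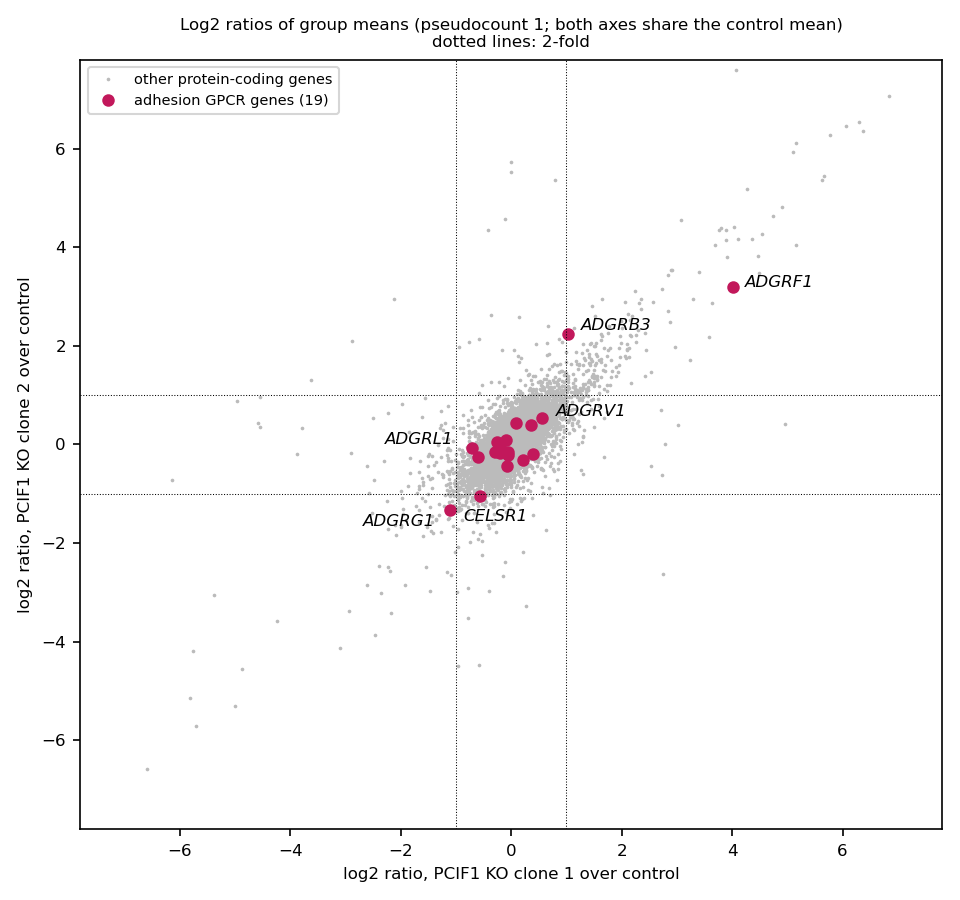
Log2 ratio of clone 1 over control (horizontal) against that of clone 2 over control (vertical) for 19 adhesion receptor genes and, in grey, the other compared protein-coding genes, 1 point per gene. Dotted lines mark 2-fold. ADGRF1 lies far to the upper right at 4.01 and 3.19, ADGRB3 at 1.03 and 2.24 and ADGRG1 at -1.10 and -1.32. Both axes use the same control mean and are not independent.

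The F subfamily held the largest differences, in opposite directions, within 1 gene cluster on chromosome 6. ADGRF1 (GPR110, a receptor for the lipid mediator synaptamide; ENSG00000153292, GRCh38 chromosome 6, 46997708 to 47042350, minus strand) had 7.6 counts in control against 136.9 in clone 1 and 77.0 in clone 2. Both clones were far above control, with ratios of 16.1-fold and 9.11-fold on the count plus 1 scale. Of 5281 protein-coding genes with 50 to 200 counts, 7 had as high a ratio in clone 1 and 8 in clone 2, ADGRF1 included. That range is set by the mean over the groups, and ADGRF1 enters it only through its counts in the clones. The rank therefore describes the difference and gives it no separate support. Clone 2 was below clone 1 by a log2 ratio of -0.82, outside the central 95% between the clones. ADGRF4 (GPR115; ENSG00000153294, 47685864 to 47722021, plus strand), an orphan receptor that begins 643.5 kb beyond ADGRF1, went the other way, with 17.3 counts in control against 0.5 in clone 1 and 0.7 in clone 2. Its log2 ratios were -3.60 and -3.45. Its mean over the groups, 6.2, missed the floor because it was nearly silent in the clones, so it is not among the 19. With the floor set on the highest group instead, an alternative chosen after the data were seen, it was compared and at least 2-fold lower in each clone, where 2.05% and 2.66% of 17998 genes were. ADGRF5, the surfactant-regulating receptor GPR116 of lung, lies 42.8 kb from ADGRF1 and did not exceed 1.5 counts.

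The genes around the cluster differed less from control. The median log2 ratio of the 10 compared genes nearest to ADGRF1, spread over 4.16 Mb, was 0.41 in clone 1 and 0.46 in clone 2. Of these, 1 passed 2-fold in clone 1, CYP39A1 with 8.3, 18.3 and 12.1 counts, and 1 in clone 2, the noncoding ENSG00000271857 with 10.3, 17.8 and 21.7. TNFRSF21, a death receptor gene between ADGRF1 and ADGRF4, had 498.7, 468.6 and 371.0 counts, and the adaptor gene CD2AP, also between them, had 136.2, 152.8 and 182.8. The noncoding CD2AP-DT, between them as well, had 16.2, 32.6 and 28.0 counts, with log2 ratios of 0.96 and 0.75, just under 2-fold.

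Start regions are shown for ADGRF1, ADGRG1 and ADGRB3, which were at least 2-fold off control, and for ADGRF4, the neighbour of ADGRF1 in its cluster. The ADGRG1 start was chosen, after the matches were seen, as the one of its annotated starts that holds any. RefSeq promoter windows (GRCh38.p14, 250 bases before the annotated start and 50 from it) were matched by symbol for 21 of the 31 members, 37 windows in all, and CELSR1 had none. In each line below, printed 5′ to 3′ on the strand of the gene, capitals mark matches on either strand to 6 motifs. These were the TATA box, searched as TATAAA, the GC box, searched as GGGCGG, the E-box, searched as CACGTG, the M-box that MITF binds, searched as TCATGTG, the AP-1 site, searched as TGANTCA, and the cyclic AMP response element, searched as TGACGTCA. No matches in the windows shown overlap one another. The windows are chr6:47042283-47042582 (minus strand) for ADGRF1, chr6:47698330-47698629 (plus) for ADGRF4, chr16:57628380-57628679 (plus) for the third annotated start of ADGRG1 and chr6:68635032-68635331 (plus) for ADGRB3.
ADGRF1: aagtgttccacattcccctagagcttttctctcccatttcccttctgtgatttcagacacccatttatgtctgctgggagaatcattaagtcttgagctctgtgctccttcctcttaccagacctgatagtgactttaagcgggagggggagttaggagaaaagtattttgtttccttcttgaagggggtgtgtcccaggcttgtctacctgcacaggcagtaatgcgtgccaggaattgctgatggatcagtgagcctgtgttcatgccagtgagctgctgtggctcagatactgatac
ADGRF4: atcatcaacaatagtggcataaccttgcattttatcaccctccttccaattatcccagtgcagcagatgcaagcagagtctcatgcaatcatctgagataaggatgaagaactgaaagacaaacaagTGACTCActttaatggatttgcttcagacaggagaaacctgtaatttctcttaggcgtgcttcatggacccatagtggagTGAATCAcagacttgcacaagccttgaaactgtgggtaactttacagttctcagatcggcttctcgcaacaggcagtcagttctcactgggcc
ADGRG1: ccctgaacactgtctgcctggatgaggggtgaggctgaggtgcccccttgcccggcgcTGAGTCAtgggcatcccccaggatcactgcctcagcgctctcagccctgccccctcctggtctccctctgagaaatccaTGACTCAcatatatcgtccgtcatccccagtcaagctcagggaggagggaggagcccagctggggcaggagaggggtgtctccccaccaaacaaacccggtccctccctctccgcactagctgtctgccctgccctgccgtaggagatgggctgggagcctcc
ADGRB3: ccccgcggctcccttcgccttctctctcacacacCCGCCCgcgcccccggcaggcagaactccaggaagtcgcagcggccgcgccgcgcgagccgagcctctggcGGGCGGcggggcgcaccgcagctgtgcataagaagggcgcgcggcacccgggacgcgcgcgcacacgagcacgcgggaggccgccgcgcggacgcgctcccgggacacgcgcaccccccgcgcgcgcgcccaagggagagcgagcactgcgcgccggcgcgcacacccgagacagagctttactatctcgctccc

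No letters of the 6 motifs occur in the ADGRF1 window. The ADGRF4 window holds AP-1 letters at 123 and 43 bases before the start, and the window of ADGRG1 holds them at 192 and 113 bases before it. Letters of this kind occur in 7.71% of all 35116 RefSeq promoter windows and in 4 of the 37 member windows, the others belonging to ADGRE3 and ADGRL4. ADGRE3 had 48.3, 41.9 and 42.9 counts and ADGRL4 15.5, 20.1 and 20.8, within 1.5-fold of control. The ADGRB3 window has 2 GC boxes, as letters found in 45% of windows, and 53 CpG dinucleotides, against a median of 14 over all windows, 2 in ADGRF1, 3 in ADGRF4 and 8 in ADGRG1. A match to such letters is no evidence that a factor binds.

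In the B subfamily, the brain-specific angiogenesis inhibitors, ADGRB3 was higher in the clones. This receptor for C1q-like proteins at synapses (BAI3; ENSG00000135298, chromosome 6, 68635282 to 69390571, plus strand) had 9.9 counts in control against 21.4 in clone 1 and 50.8 in clone 2. Clone 2 was the highest and control the lowest, with log2 ratios of 1.03 and 2.24 over control and 1.21 between the clones. At its count, 6.97% of protein-coding genes had as high a ratio in clone 1 and 2.04% in clone 2. ADGRB3, too, enters that count range through the clones, so these shares only describe its ratios. With a pseudocount of 5 its ratio in clone 1 was 0.82, under 2-fold. Its listed length is 0.86% of its span. The divergent noncoding gene ADGRB3-DT lies upstream on the other strand. Its RefSeq start is 958 bases away, whereas the GENCODE gene, to which the counts belong, lies 0.1 kb from ADGRB3. ADGRB3-DT had 11.9, 30.9 and 43.0 counts, log2 ratios of 1.31 and 1.78. The 10 compared genes nearest to ADGRB3, ADGRB3-DT among them, had medians of 0.04 and 0.27. Those 10 genes are spread over 7.02 Mb. ADGRB2 had 55.5, 36.2 and 46.6 counts, with log2 ratios of -0.60 and -0.25. ADGRB1, a receptor that recognises apoptotic cells for engulfment, did not exceed 1.0 count.

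In the G subfamily ADGRG1 was lower in the clones. ADGRG1 (GPR56, a receptor for collagen III and transglutaminase 2; ENSG00000205336, chromosome 16, 57610652 to 57665580, plus strand) had 178.5 counts in control against 82.6 in clone 1 and 70.7 in clone 2. Control was above either clone, by 2.15-fold and 2.5-fold on the count plus 1 scale, log2 ratios of -1.10 and -1.32. The clones differed from each other by a log2 ratio of -0.22, inside the central 95% at that count. Of 5281 protein-coding genes of like count, 22 had as low a ratio in clone 1 and 14 in clone 2, ADGRG1 included. Its value stayed at least 2-fold lower in each clone under all 8 alternatives, though those that alter only the floor could not change it. The adjoining receptor gene ADGRG3 (GPR97, a granulocyte receptor), 2.7 kb downstream, had 5.1, 0.9 and 1.7 counts, highest in control as for ADGRG1 but under 10 throughout. The 10 compared genes nearest to ADGRG1 had medians of -0.31 and -0.29, with none at least 2-fold off. Among them, KIFC3 had 671.3, 538.7 and 509.9 counts. ADGRG6 (GPR126), needed for myelination by Schwann cells, had 172.0, 165.0 and 154.6 counts, log2 ratios of -0.06 and -0.15. ADGRG2, ADGRG4 and ADGRG7, known from the epididymis, enterochromaffin cells and the intestine, did not exceed 3.8 counts.

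The C subfamily, the cadherin receptors of planar cell polarity, was transcribed throughout. CELSR1 (ENSG00000075275, chromosome 22, 46360834 to 46537620, minus strand) had 50.1 counts in control against 33.6 in clone 1 and 23.8 in clone 2. Control was the highest and clone 2 the lowest, with log2 ratios of -0.56 and -1.04. At its count 4.55% of protein-coding genes had as low a ratio in clone 2, and with a pseudocount of 5 the ratio was -0.93, under 2-fold. The 10 nearest compared genes had medians of -0.04 and -0.19. CELSR2 had 82.9, 67.5 and 74.6 counts, with log2 ratios of -0.29 and -0.15. CELSR3 had 457.5, 428.1 and 490.3 counts, the highest counts of the family, with log2 ratios of -0.10 and 0.10. Around CELSR3, on chromosome 3, the 10 nearest genes had a median of 0.25 in clone 2 and -0.13 in clone 1.

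**Figure D3:**
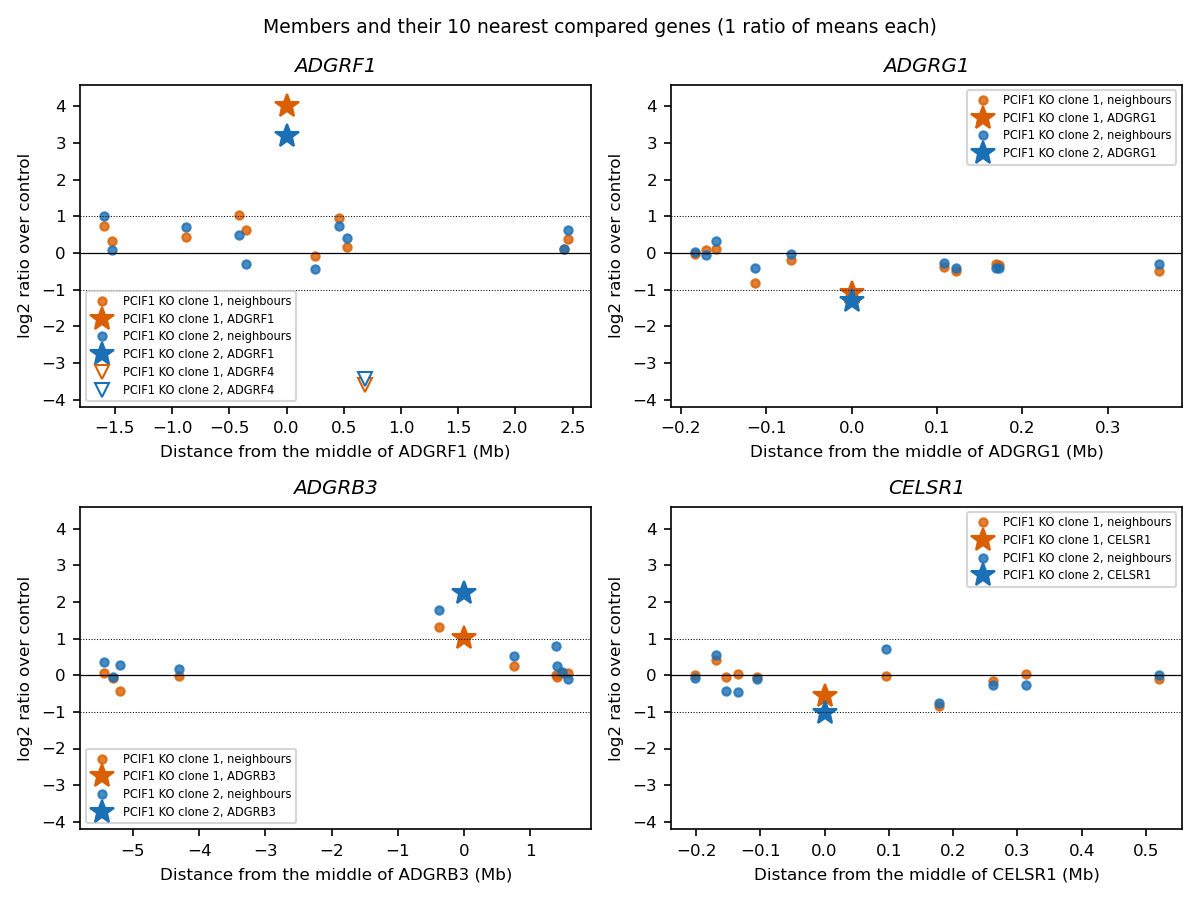
Log2 ratios over control of ADGRF1, ADGRG1, ADGRB3 and CELSR1 (stars) and of the 10 compared genes nearest to each (dots), against distance in Mb, with clone 1 in orange and clone 2 in blue. Open triangles in the first panel are ADGRF4, which missed the floor. ADGRF1 and ADGRF4 stand far from their neighbours on opposite sides, ADGRG1 lies below neighbours that are themselves slightly below 0, and the neighbour next to ADGRB3 is its divergent transcript.

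The V subfamily is 1 gene, ADGRV1 (VLGR1, the giant receptor of hair cell ankle links that is affected in Usher syndrome; chromosome 5, 90529344 to 91164437, plus strand). It had 201.9 counts in control against 296.3 in clone 1 and 293.6 in clone 2. The clones were alike and above control, with log2 ratios of 0.55 and 0.54, under 2-fold. Of protein-coding genes with 200 to 1000 counts, 2.97% had as high a ratio in clone 1 and 6.71% in clone 2. The 10 nearest compared genes had medians of 0.23 and 0.17. LUCAT1, a stress-related noncoding gene that overlaps the end of its span on the other strand, was lower in the clones, with 309.4, 219.3 and 166.9 counts.

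In the L subfamily, the latrophilins ADGRL1, ADGRL2 and ADGRL3 bind FLRT proteins and teneurins across synapses. ADGRL2 had 181.1, 151.7 and 187.4 counts, with log2 ratios of -0.25 and 0.05. ADGRL1 had 31.8, 19 and 30.3, with ratios of -0.71 and -0.07, clone 1 being the lowest. Of its exons, 5.6% overlap ADGRL1-AS1 on the other strand, which had 92.9, 84.4 and 91.9 counts. ADGRL4 (ELTD1), a gene of endothelium, had 15.5, 20.1 and 20.8 counts with ratios of 0.35 and 0.40. ADGRL3 stayed at 4.8 counts or below. The listed length of ADGRL2, 7754 bases, is well short of its 24178 exon bases in GENCODE release 44, so parts of the gene as now annotated were not counted.

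The E subfamily carries EGF repeats and is best known from leukocytes. ADGRE5 had 380.3, 366.6 and 327.4 counts, log2 ratios of -0.05 and -0.22. ADGRE3 had ratios of -0.20 and -0.17, and ADGRE1, the human counterpart of the mouse macrophage antigen F4/80, had 18, 23.9 and 15.6 counts with ratios of 0.39 and -0.20. ADGRE2, whose EGF repeats nearly match those of ADGRE5, had 6.6, 7.3 and 10.5 counts, and reads of such repeats may be split between them. Of its exons 15.7% overlap the zinc finger gene ZNF333, which had 126.8, 101.0 and 99.4 counts. Leukocyte markers were near 0 in the same groups. In the A subfamily, ADGRA3 (GPR125) had 251.5, 238.3 and 186.8 counts. Clone 2 was the lowest, with log2 ratios of -0.43 over control and -0.35 over clone 1, the latter just outside the central 95% between the clones. ADGRA2 (GPR124), the WNT7 coreceptor of brain vessels, had 18.1, 21.2 and 14.3 counts, with 23.0% of its exons overlapping BRF2. ADGRA1 (GPR123) and ADGRD2 (GPR144) did not exceed 0.4 counts.

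Ligands and partners of these receptors were taken from lists of known interactions. Of 26 ligand and coreceptor genes, 14 were compared. In clone 1, 1 was at least 2-fold higher and 1 lower, with a median of -0.01, against 2.27% and 1.32% of all compared genes. In clone 2, 2 were higher and 1 lower, with a median of -0.05, against 3.34% and 1.9%. So few genes do not set a list apart from those shares. Among latrophilin ligands, FLRT2 had 2.4 counts in control against 102.6 and 96.0 in the clones, and so reached the floor through the clones. FLRT3 had 0.4 in control, 0.3 in clone 1 and 31.3 in clone 2, and its mean of 10.6 reached the floor through clone 2 alone. Of the teneurin genes only TENM3 was compared, with 158.9, 127.9 and 137.1 counts. WNT7A, whose signal ADGRA2 relays together with RECK, had 35.0, 8.6 and 11.5 counts, log2 ratios of -1.91 and -1.52, while RECK had 57.9, 75.1 and 72.1. The ligand genes of ADGRE5 were transcribed: CD55 had 518.5, 534.3 and 523.3 counts, and THY1 had 64.3, 64.5 and 36.1. For ADGRG1, the ligand gene TGM2 had 1013.6, 1003.5 and 756.3 counts, while the collagen III gene COL3A1 did not exceed 2.1. The ADGRB3 ligand genes C1QL2 and C1QL3 were listed at 0, C1QL1 did not exceed 1.9 counts, and C1QL4 had 8.9, 11.8 and 14.0. Of the ADGRG6 ligands, PRNP had 590.9, 441.4 and 456.4 counts and COL4A1 had 201.6, 158.8 and 147.6.

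Of 13 planar cell polarity genes that work with the CELSR receptors, 11 were compared and none was at least 2-fold off in clone 1. In clone 2, PRICKLE2 was lower, with 17.8, 12.8 and 8.4 counts, and the medians were -0.18 and -0.20. Of all compared genes, 2.27% were higher and 1.32% lower in clone 1, and 3.34% and 1.9% in clone 2. The other genes with the largest mean ratio over the clones were PRICKLE3 (56.7, 39.3 and 49.7), PRICKLE1 (374.1, 446.3 and 495.3) and FZD6 (195.0, 230.5 and 250.3). Of 5 ankle link genes 2 were compared. Whirlin (WHRN), which binds the tail of ADGRV1, had 286.9, 489.4 and 416.1 counts, log2 ratios of 0.77 and 0.54, and PDZD7 had 114.1, 90.1 and 143.0.

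Of 36 genes of G proteins and their signalling, 29 were compared, with medians of -0.12 and -0.06. In clone 1, none was at least 2-fold higher and 2 were lower, against 2.27% and 1.32% of all compared genes. ELMO1, which carries the engulfment signal of ADGRB1, had 29.1 counts in control and 37.6 in clone 2 but 0.3 in clone 1, so clone 1 stood apart. GNAL, which encodes an olfactory type of stimulatory alpha subunit, had 104.8, 50.9 and 70.7. In clone 2, 1 gene was higher, the arrestin gene ARRB2 with 22.6, 33.2 and 47.3 counts, and none was lower. The shares of all compared genes there were 3.34% higher and 1.9% lower. The inhibitory subunit gene GNAI2 had 783.1, 977.1 and 1409.9 counts and GNAI1 120.0, 172.3 and 182.5. Of the G12 and G13 route to RhoA, which ADGRG1 is known to use, no gene was at least 2-fold off. GNA12 had 141.8, 105.9 and 112.4 counts, GNA13 had 196.1, 193.6 and 179.7, ARHGEF11 had 163.2, 123.7 and 106.8, and RHOA had 197.7, 211.4 and 312.5.

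**Figure D4:**
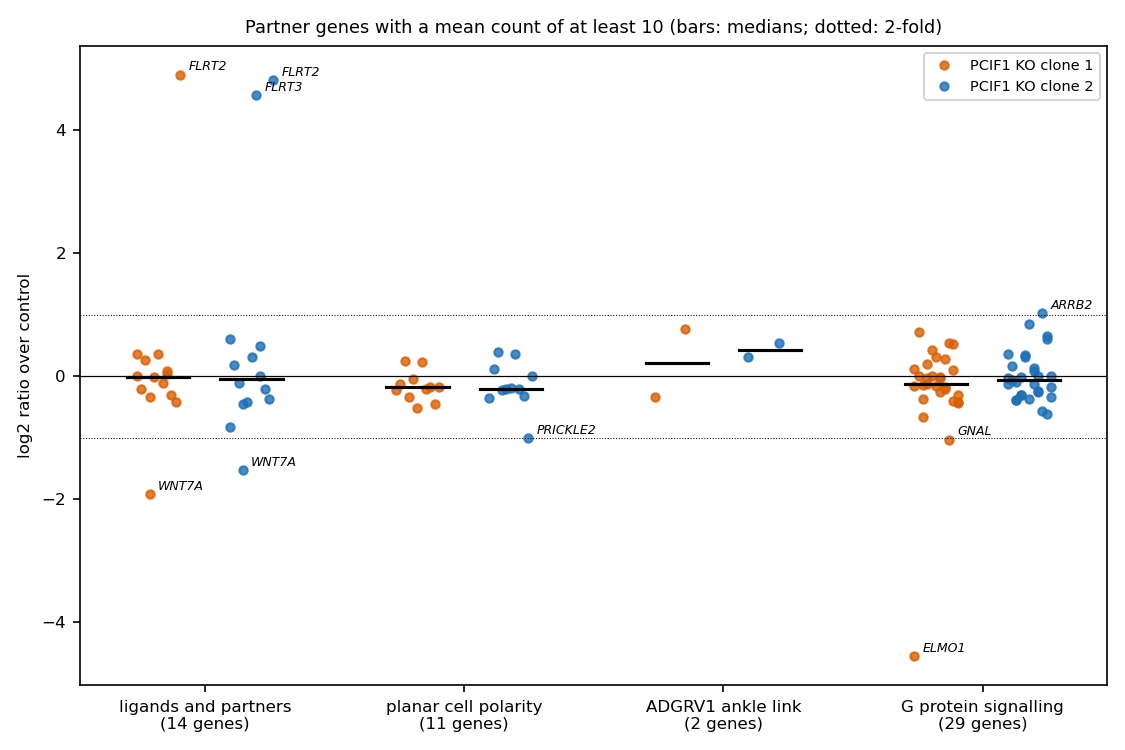
Log2 ratios over control of the compared partner genes in 4 lists, with clone 1 in orange and clone 2 in blue, 1 point per gene, bars at the medians and dotted lines at 2-fold. The medians lie between -0.20 and 0.43, and FLRT2, FLRT3, WNT7A, PRICKLE2, ELMO1, GNAL and ARRB2 are the genes named as at least 2-fold off.

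PCIF1 acts on transcripts that begin with adenosine, so the annotated first base was read from the canonical GENCODE transcript of each member. It was A in 9 of the 19 compared members (47.4%), near the 46.9% of compared protein-coding genes. The 9 had median log2 ratios of -0.05 in clone 1 and -0.22 in clone 2, and the 10 with another base had -0.15 and -0.04. ADGRF1, ADGRF4, ADGRB3 and CELSR1 begin with A and ADGRG1 with G. Of the 9 with A, 22.2% were at least 2-fold off in clone 1 and 33.3% in clone 2. Of the 10 others, 10% were in each clone. Among compared protein-coding genes the shares were 3.9% and 5% with A, and 2.8% and 3.56% with another base. The member shares rest on very few genes, and a link to the start base was not tested. Annotated starts need not be those used in MEL624.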

How the data were processed

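Members, gene lists and alternatives were chosen with earlier results of these data known. The authors deposited 1 table of signal values: per the file headers, normalized counts averaged within each group and divided by gene length in kb. Builds hg38, dm3 and GRCh38.p12 and the tools DESeq2, featureCounts, Bowtie 1.2.2 and cutadapt 1.14 are listed, with no role, per the submitters' processing notes. How strand, counted feature and spike-in were handled is not given in the sources used here. Header names number 6 and cells per row 5. The gene symbol was taken as absent, since listed lengths lie within 5% of GENCODE release 44 exon length for 25 of the 31 members (equal for 11). Those lengths cover a median of 8.69% of a member's span, and whether reads in introns were counted is not stated. The design text gives 40000 Drosophila cells per 1000000 cells and a mean of 50000000 mappable reads.

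Identifiers were matched to GENCODE release 44 by Ensembl number (582 unmatched). Values were multiplied by length, and log2 ratios taken with a pseudocount of 1 for genes averaging 10 counts or more. The 5 nearest compared genes on each side, by gene middle, served as neighbours. No test was run, since there is 1 mean per group. The code that counts 2-fold differences was checked on simulated counts, which bears on the code and not on the choice of 2-fold. Some members and other genes are not reported here by name, though they enter the counts and medians. The text names each other member, the 4 genes per list with the largest mean ratio of the clones, and partners at least 2-fold off. Of the neighbours of members at least 2-fold off, only some are named. Neighbours and other partners were named after their values were seen. Start bases and promoter windows come from GENCODE and RefSeq. Alternatives were other pseudocounts, floors and scalings. Python 3.11.15, numpy 2.4.6, pandas 2.3.3 and matplotlib 3.10.9 were used.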

Additional observations from a re-analysis of the deposited data

How the results depend on the processing

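Under 7 other settings and 1 chosen after the data were seen (the floor on the highest group), 394 of 396 member ratios kept their side of 2-fold and none changed the sign of a 2-fold difference. The exceptions are ADGRB3 in clone 1 and CELSR1 in clone 2 at a pseudocount of 5, which left 1 member at least 2-fold higher in clone 1 and 1 lower in clone 2 (1.77% and 1.24% of all genes). Settings that alter only the floor leave each ratio as it was, so those ratios kept their side by construction. Ratios of members that missed a floor are not among the 396. Rescaling by median ratios and quantile normalization took the same genes as the main setting. With no floor all 31 members were compared. Then 2 were higher and 3 lower in clone 1, 5 higher and 5 lower in clone 2, and, of clone 2 against clone 1, 3 higher and 1 lower. The shares of all 58336 genes were 2.41% higher and 2.46% lower in clone 1, 3.07% and 3.14% in clone 2, and 1.81% and 1.92% between the clones. A floor of 50 kept 10 members, of which 1 was higher (ADGRF1) and 1 lower (ADGRG1) in each clone. The shares of all genes were 0.999% higher and 0.428% lower in clone 1, and 1.79% and 0.671% in clone 2. At that floor 0 members were higher in clone 2 than in clone 1, where 0.336% of all genes were. With floor and pseudocount applied per kb, 8 members were compared. Of these, 0 were higher in clone 1, in clone 2 or in clone 2 against clone 1, where 2.41%, 3.24% and 1.68% of all genes were. Only ADGRG1 was lower, in each clone, where 2.12% of all genes were in clone 1 and 3.09% in clone 2. ADGRF1 and ADGRB3 then missed the floor. With the floor on the highest group ADGRF4 and ADGRG1 were lower in clone 1, where 2.05% of all 17998 genes were. In clone 2 ADGRF4, ADGRG1 and CELSR1 were lower, against 2.66%. The medians of the members moved by at most 0.1 under these alternatives. No paired analysis was possible because the table holds 1 mean per group, and leaving out replicates was not possible for the same reason. The unknown depth limits most what can be said of members under 50 counts.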

Other observations

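Loci named after adhesion receptors that are not protein-coding were listed too. ADGRA3P1, a processed pseudogene of ADGRA3 on chromosome 18, had 13.3 counts in control against 4.3 in clone 1 and 3.4 in clone 2. Its mean of 7.0 is under the floor. Its parent gene had 251.5, 238.3 and 186.8 counts. ADGRF2, annotated as a pseudogene within the chromosome 6 cluster, had 0.4, 0.6 and 0.3 counts, and ADGRE4P did not exceed 0.5. The antisense genes ADGRA1-AS1, ADGRD1-AS1, ADGRF5-AS1 and ADGRL3-AS1 were listed at 0 in all groups.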
